A study of Mus musculus with 13 samples.

Results

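The 46 genes described here are endothelial: genes of the vessel lining's identity and junctions, of its activation, and of arteries. They were taken by symbol from a list of endothelial genes that was set with earlier results of these data known, and all 46 were found among the 46958 genes of the count table. They lie on 17 chromosomes of the mouse build GRCm38. A filter on low counts kept 16738 genes, and 45 of the 46 passed it. Selp, the leukocyte receptor P-selectin, had 0 to 9 counts in any library and was not tested. RNA was sequenced from glomeruli, the capillary tufts that filter blood in the kidney, which were isolated with magnetic beads from mice aged 6 months of the mixed background C57/BL6x129/SVxBALB/c. Of 13 libraries, 4 were from mice labelled LCDD, with the further name kFRA, 4 from mice labelled DH-LMP2A and 5 from wild-type (WT) mice. LCDD stands for light chain deposition disease, a disorder of antibody light chains that settle in kidney tissue. The labels do not describe the DH-LMP2A genotype and do not say whether the LCDD mice also carry it. Every LCDD and DH-LMP2A library and WT replicates 1 and 2 pooled 3 mice each, while WT replicates 3, 4 and 5 were 1 mouse each. P-values over single mice and pools measure the spread between these libraries.

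Glomerular endothelial cells line a high-pressure capillary tuft with open fenestrae and a thick surface coat, and filter plasma together with the basement membrane and the podocytes on its outer side. Junction proteins such as VE-cadherin hold endothelial cells together, and transcription factors of the ETS, SOXF and KLF families set their identity and their response to flow. Endothelial cells also make vasoactive signals such as nitric oxide and endothelin, keep blood from clotting, and when activated display selectins, ICAM-1 and VCAM-1, which hold leukocytes.

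Levels are in CPM, the counts divided by the size of the library after scaling with TMM factors. Libraries held 16687509 to 30587890 counts, so a floor of 3 counts corresponded to 0.0981 to 0.180 CPM. Every member stood above that floor in every library except Selp, and Sele came closest, with 0.400 CPM in 1 library. Sample titles carry a number of 6 digits that genotypes share and whose meaning is not stated. Its 4 values are called codes A to D here, in ascending order. LCDD and DH-LMP2A replicates 1 to 4 carry codes A to D in that order, WT replicate 1 carries A, WT replicate 2 carries C, WT replicates 3 to 5 carry D, and no WT library carries B. Libraries of the same code deviated together from their genotype means, so differences are given without and with the code added as a term, called the replicate block here. A gene is called where its adjusted p, by edgeR's quasi-likelihood test with Benjamini-Hochberg adjustment over the 16738 genes, is under 0.05. Counts of Ddx3y, a gene of the Y chromosome, were 0 or 1 in WT replicates 1, 3, 4 and 5, 197 in WT replicate 2 and 208 to 2296 in the LCDD and DH-LMP2A libraries, so contrasts with WT also differ in Y-linked RNA. LCDD and DH-LMP2A libraries of the same code differed too: 2214 and 1336 (code A), 296 and 2296 (B), 1861 and 435 (C), 208 and 1185 (D). Fits with Ddx3y as a covariate are named where they change a call or a sign. In contrasts with WT the covariate nearly follows genotype, so those fits can hardly separate it from genotype.

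Levels per kilobase of exon, the scale on which genes can be compared, spanned a wide range. Ehd3, a membrane-trafficking gene known for its glomerular endothelial expression, was highest with a mean of 671 CPM per kb over the 13 libraries. Eng (endoglin, a coreceptor of the TGF-beta family) followed with 338 and Emcn (endomucin, a sialomucin of capillary and venous surfaces) with 238 CPM per kb. Cldn5 (claudin 5, a tight junction protein) had 150.4, Pecam1 (the adhesion molecule CD31) 128 and Cdh5 (VE-cadherin) 128 CPM per kb. In the individual libraries Ehd3 stood at 3562, 3615, 2001 and 1797 CPM in LCDD, 2932, 2008, 1489.9 and 1096 in DH-LMP2A and 2889, 1999, 2702, 2322 and 3479 in WT. Eng stood at 1864, 2106, 1013 and 1486 CPM in LCDD, 1335, 1089, 1068 and 782 in DH-LMP2A and 1368, 1877, 1287, 1068 and 1460.5 in WT. Emcn stood at 1705, 1911, 982 and 1059, then 1347, 936, 776 and 689.5, then 1645, 954, 1540.1, 1392 and 1766 CPM in the same order. All of these overlapped between genotypes, and DH-LMP2A replicate 4 was the lowest of the 13 libraries for each of the 3 genes.

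Plvap, which builds the diaphragms of fenestrae in many other capillary beds, had 80.5 CPM per kb, rank 13 of the 46. The 4 lowest members were Sele, Lyve1, Vwf and Selp. Sele (E-selectin) had 1.53, Lyve1 (a hyaluronan receptor of lymphatic vessels) 1.25, Vwf (von Willebrand factor, a clotting protein of larger vessels) 0.326 and Selp 0.0324 CPM per kb. Of 2 related genes outside the members, Prox1, a lymphatic transcription factor, reached at most 1.38 CPM, and Ackr1, a venous chemokine receptor, was at or near 0 in every library.

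**Figure D1:**
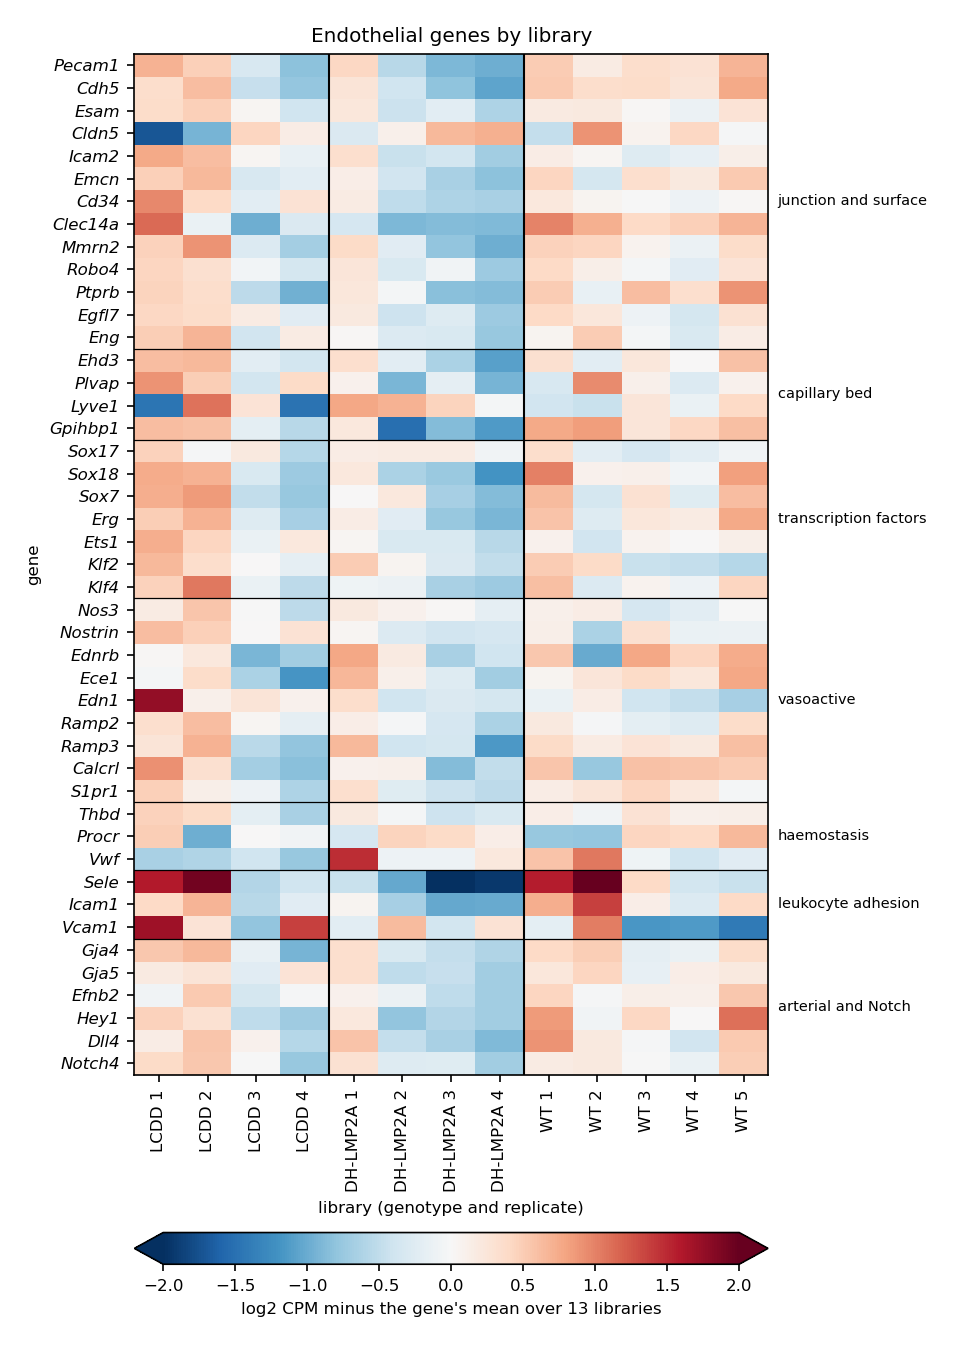
Colours show log2 CPM of each of the 45 tested endothelial genes (rows, by role) in each of the 13 libraries (columns, by genotype), minus the gene's mean over the libraries, with values beyond 2 in either direction drawn in the end colours. Most rows are red in LCDD replicates 1 and 2 and blue in DH-LMP2A replicates 3 and 4, while the row of Cldn5 runs the other way.

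The members largely varied together across libraries. Taking for each gene the Pearson correlation of its log2 CPM with the mean of the other members over 13 libraries, the median r was 0.83 and 25 of 45 members were over 0.8. These correlations are descriptions, since the genes share the libraries, the genotypes and the depth. Mmrn2 (multimerin 2, of the endothelial matrix) had r = 0.97, Sox18 (a SOXF transcription factor) 0.96, Pecam1 0.96 and Cdh5 0.95. Below 0.3 were 6 members, of which Lyve1, Vcam1, Procr (the protein C receptor) and Cldn5 had negative values and Vwf and Sox17 low positive ones. Over the same 13 libraries the mean of the members ran from 6.57 to 7.41 log2 CPM in LCDD, 6.32 to 7.18 in DH-LMP2A and 6.91 to 7.30 in WT. In LCDD, replicates 1 and 2 stood above replicates 3 and 4, and in DH-LMP2A replicate 1 stood above the others. The SD of that mean was 0.44 in LCDD, 0.37 in DH-LMP2A and 0.15 in WT.

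Cldn5 was the exception among the junction genes. It stood at 59.1, 101, 259 and 215 CPM in LCDD, 158, 207, 303 and 315 in DH-LMP2A and 138, 360.4, 203, 257 and 190.1 in WT. LCDD replicates 1 and 2, among the highest libraries for most members, were the lowest for Cldn5, and the genotypes overlapped. In LCDD minus DH-LMP2A its log2 difference was -0.64 ± 0.42 without and -0.79 ± 0.21 with the block (adjusted p = 0.589 and 0.0556), lower under 4 of 4 codes and not called. DESeq2 with the block called it. Its correlation with the mean of the other members was r = -0.72 (Spearman's rho -0.80, n = 13 libraries), and -0.66 without the 2 libraries farthest from the median. With the mean of 6 podocyte genes (Nphs1, Synpo, Wt1, Magi2, Ptpro and Tcf21) it was r = 0.93 (rho 0.81, n = 13), and 0.77 without the 2 farthest. All 44 other members had lower podocyte correlations, from -0.79 (Edn1) to 0.21 (Lyve1). Claudin 5 is also known as a junction protein of podocytes.

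Genes outside the list whose pattern came closest to the members' mean were sought among the 14481 genes with enough expression. Highest were Rasgrf2 with r = 0.98, Ppap2a with 0.98, Sh3bp5 with 0.97, Gimap6 with 0.97 and Bag5 with 0.97 over the same 13 libraries. Cd300lg, an endothelial receptor-like gene of a separate list of endothelial genes, had r = 0.96.

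Most endothelial genes had higher fitted levels in LCDD than in DH-LMP2A: the median log2 difference of the 45 members was 0.41, with 38 higher and 7 lower, against -0.01 over all 16738 genes. Without the block 0 members were called by edgeR, when 2% of all genes were, and DESeq2 called 2, Cd34 and Sele, when it called 4.86% of all genes. Without LCDD replicate 2 the median was 0.23 and without DH-LMP2A replicate 1 it was 0.67. At an unadjusted p under 0.05, edgeR had 12 members (11 higher and Vwf lower), where 13.1% of all genes passed in either direction, 7.95% higher and 5.16% lower. With the replicate block 4 members rose in LCDD, Cd34, Ets1, Nostrin and Sele, and 0 fell, where 3.24% of all genes rose and 2.86% fell. DESeq2 with the block called 13 members, when it called 12.2% of all genes. In bulk RNA, more endothelial cells and more RNA per cell cannot be told apart. With the block, 0 members were called when DH-LMP2A replicate 2 or 4 or LCDD replicate 1 or 2 was left out. In those fits 1.46%, 2.37%, 2.86% and 1.56% of all genes were called, in that order. With the block and pooled libraries only, 1 member was called, Nostrin, where 2.32% of all genes were. Of the 8 fits with the block that leave out 1 library, Cd34 was called in 3, Ets1 in 2, Nostrin in 1 and Sele in 1. With the block and Ddx3y as a covariate the 4 called were Cd34, Nostrin, Sele and Edn1, where 5.31% of all genes were called. Ets1 was not called there (adjusted p = 0.0531). All 3 genotype comparisons share libraries with each other, so their values stand side by side and are not independent.

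Cd34, a sialomucin of capillary endothelium, had the smallest adjusted p of the members here. It stood at 1039, 709.5, 464 and 655 CPM in LCDD and 600.0, 377, 348 and 343 in DH-LMP2A, with 619.7, 557, 532, 503 and 546 in WT. LCDD replicate 1 was the highest, and LCDD and DH-LMP2A overlapped only through LCDD replicate 3 and DH-LMP2A replicate 1. The log2 difference was 0.78 ± 0.24 (SE, adjusted p = 0.131) without the block and 0.77 ± 0.15 (adjusted p = 0.0169) with it, and LCDD was higher under 4 of 4 codes. Cd34 lies at chr1:194938819-194961279, plus strand, and its exons share bases with an opposite-strand gene, Gm16897. The strand setting of the counting is not given in the sources used here.

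Among the transcription factors, Ets1, an ETS factor of endothelial and other cells, stood at 946, 766, 519 and 661 CPM in LCDD and 586, 464, 463 and 391 in DH-LMP2A, with 604, 437, 599, 574 and 619 in WT. LCDD replicate 3 fell within the DH-LMP2A values and the other LCDD libraries were above all of them. The fitted log2 difference was 0.60 ± 0.20 without and 0.58 ± 0.14 with the block (adjusted p = 0.16 and 0.0391). Of the 7 tested factors 6 had positive differences, where 49% of all genes did. Higher under every code were 6 (Sox18, Sox7, Erg, Ets1, Klf2 and Klf4), where 17.6% of all genes were.

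Nostrin, an adaptor that binds endothelial nitric oxide synthase and guides its trafficking, stood at 211, 191, 138 and 167 CPM in LCDD and 140.5, 113, 105 and 108 in DH-LMP2A, with 149, 88.6, 170.4, 125 and 126 in WT. LCDD and DH-LMP2A overlapped by LCDD replicate 3 and DH-LMP2A replicate 1 alone. The log2 difference was 0.60 ± 0.19 without and 0.58 ± 0.13 with the block (adjusted p = 0.151 and 0.031). Nos3, the synthase itself, had 0.06 ± 0.19 without and 0.02 ± 0.12 with the block. Edn1, which encodes the vasoconstrictor endothelin 1, stood at 52.5, 16.7, 18.6 and 16.6 CPM in LCDD and 19.9, 11.8, 12.6 and 12.1 in DH-LMP2A. LCDD replicate 1 was far above all others, and the other LCDD libraries overlapped DH-LMP2A replicate 1. On the log2 scale the difference was 0.89 ± 0.36 without and 0.77 ± 0.23 with the block (adjusted p = 0.288 and 0.084), and without LCDD replicate 1 it was 0.30 without and 0.43 with the block. It passed the threshold in neither of these fits. With the block it was called with Ddx3y as a covariate (0.84, adjusted p = 0.0287) and by DESeq2 (adjusted p = 0.0247).

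Sele, a rolling receptor for leukocytes on activated endothelium, was low in every library and had the largest fold difference of the members. It stood at 8.52, 10.8, 1.83 and 2.09 CPM in LCDD and 2.02, 1.33, 0.3997 and 0.671 in DH-LMP2A. LCDD replicates 1 and 2 were the highest of these, and LCDD replicate 3 overlapped DH-LMP2A replicate 1. Within codes LCDD was higher in 4 of 4, by 2.03, 2.95, 1.99 and 1.52 in log2 CPM for codes A to D. The log2 difference was 2.37 ± 0.78 without and 2.23 ± 0.55 with the block (adjusted p = 0.166 and 0.0417). Against WT, which stood at 8.41, 13.8, 3.68, 2.15 and 2.03 CPM, LCDD was not called.

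Promoters are shown for Cd34, Nostrin and Sele, which rose with the block here, and for Clec14a, which had the smallest adjusted p of the members in DH-LMP2A against WT. Of the 46 members 26 matched an entry of the promoter table. Bases are from RefSeq, build GRCm38.p6, in the direction of the gene. The capitals mark GGAAG or its reverse complement CTTCC, a string of ETS motifs, read on both strands. The shorter GGAA and TTCC also occur in the windows and are not marked or counted.
Cd34 (chr1:194938571-194938820, plus strand): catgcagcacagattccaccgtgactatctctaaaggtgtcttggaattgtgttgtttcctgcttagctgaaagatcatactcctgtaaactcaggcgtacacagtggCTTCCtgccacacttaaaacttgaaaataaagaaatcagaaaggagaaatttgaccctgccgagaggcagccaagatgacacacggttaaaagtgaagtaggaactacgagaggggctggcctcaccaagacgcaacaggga
Nostrin (chr2:69135550-69135799, plus strand): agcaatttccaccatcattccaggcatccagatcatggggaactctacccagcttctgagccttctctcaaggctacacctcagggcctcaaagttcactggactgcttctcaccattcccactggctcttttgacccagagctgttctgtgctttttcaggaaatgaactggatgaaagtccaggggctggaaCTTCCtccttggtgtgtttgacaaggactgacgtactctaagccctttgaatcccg
Sele (chr1:164047984-164048233, plus strand): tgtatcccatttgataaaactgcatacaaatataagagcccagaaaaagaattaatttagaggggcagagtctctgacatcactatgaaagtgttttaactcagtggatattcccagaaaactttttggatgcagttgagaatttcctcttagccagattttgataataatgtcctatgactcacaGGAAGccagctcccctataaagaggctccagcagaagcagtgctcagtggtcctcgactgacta
Clec14a (chr12:58269259-58269508, minus strand): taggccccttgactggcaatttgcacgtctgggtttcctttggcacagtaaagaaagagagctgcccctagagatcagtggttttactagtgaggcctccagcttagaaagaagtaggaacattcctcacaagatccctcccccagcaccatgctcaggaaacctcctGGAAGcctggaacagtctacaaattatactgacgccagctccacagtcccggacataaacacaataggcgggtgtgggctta
Each 250-base window held 1 such match, 142 bases before the start in Cd34, 56 in Nostrin, 64 in Sele and 82 in Clec14a. Motifs were counted over 33 promoters of the 26 members with an entry, in windows of 300 bases, and over 32851 promoters of all genes. GGAAG was in 25 of the 33 (75.8% against 71.4%), ACAAT, a core of SOX motifs, in 10 (30.3% against 31.0%) and CACCC, a core of KLF motifs, in 24 (72.7% against 57.5%). These are descriptions of letters in a window.

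Vwf alone was lower in LCDD than in every DH-LMP2A library, where 2.89% of all genes had such a separation. The opposite separation was found in 0 members and 4.74% of all genes. Vwf stood at 2.95, 3.05, 3.501 and 2.72 CPM in LCDD and 13.2, 4.33, 4.34 and 5.42 in DH-LMP2A. DH-LMP2A replicate 1 was the highest by far. The log2 difference was -1.16 ± 0.40 without and -1.05 ± 0.33 with the block (adjusted p = 0.196 and 0.0938), so it was not called. Without DH-LMP2A replicate 1 it was -0.62 without and -0.70 with the block. With the block it was called without DH-LMP2A replicate 3 (adjusted p = 0.0466) and by DESeq2 (adjusted p = 0.0239). Of all members, 22 of 45 were higher under every code, where 17.6% of all genes were, and 2 (Cldn5 and Vwf) lower under every code, where 16.3% were.

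**Figure D2:**
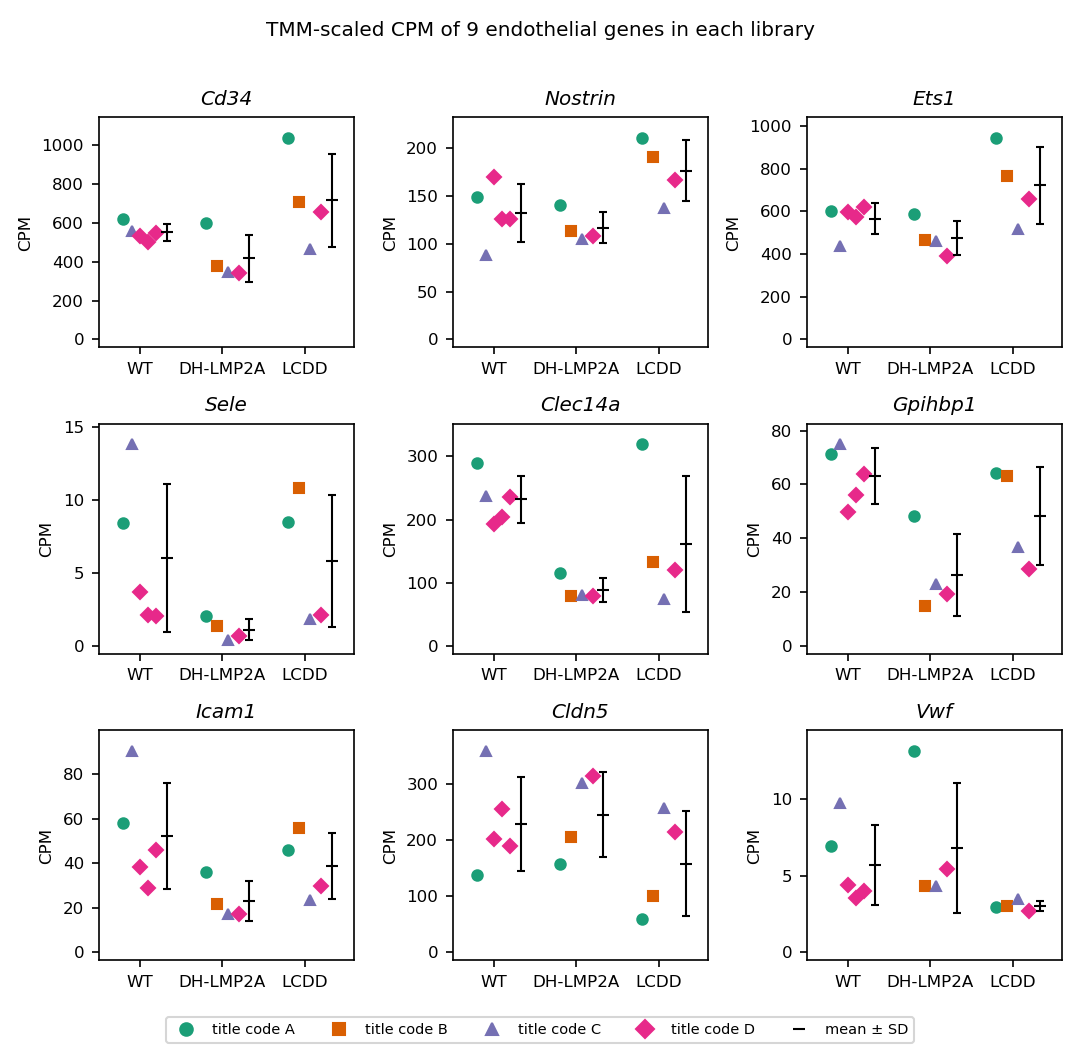
Points show TMM-scaled CPM of 9 endothelial genes in each library by genotype (horizontal axis), coloured and shaped by title code, with the mean and SD drawn to the right of each group. Cd34, Nostrin and Ets1 are higher in most LCDD libraries than in DH-LMP2A, Clec14a and Gpihbp1 are lower in every DH-LMP2A library than in any WT library, and Vwf is lowest in LCDD.

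By role, the junction and surface genes had 12 of 13 positive differences and a median of 0.52, and the leukocyte adhesion genes 3 of 3. The arterial and Notch genes (Gja4, Gja5, Efnb2, Hey1, Dll4 and Notch4) had 6 of 6 with a median of 0.36. Of all genes, 49% had positive differences. Higher under every code were 9 of 13, 2 of 3 and 0 of 6 in that order, where 17.6% of all genes were. The 9 vasoactive genes had a median of 0.20, and Ednrb and Ece1, which bind and mature endothelin, were the pair with negative values. Of the 3 haemostasis genes, 2 were negative. Within each code the median over the members was 0.27 (code A), 0.76 (code B), 0.25 (code C) and 0.30 (code D), against -0.02 to 0.00 for all genes, with 30 to 40 of 45 higher. Markers of other cells differed as well, and no test of them is given: all 6 podocyte genes had lower fitted levels in LCDD (median -0.38), all 5 genes of vascular smooth muscle and renin cells lower (-1.07), all 8 proximal tubule genes lower (-0.90) and all 6 distal tubule and collecting duct genes lower (-0.51). All 6 mesangial genes (0.70) and all 6 macrophage genes (0.76) had higher fitted levels. The summed level of the smooth muscle and renin genes was 169 to 437 CPM in LCDD, 539 to 881 in DH-LMP2A and 304 to 479 in WT. In that sum DH-LMP2A overlapped neither of the others. In mean log2 CPM it overlapped both, with 4.254 to 5.408 in LCDD, 5.129 to 6.292 in DH-LMP2A and 4.735 to 5.572 in WT. The part of these other cells in the endothelial result was not tested, except that the proximal tubule mean was used as a covariate. With it the median of the members was 0.58, with 3 calls without the block (Cd34, Klf4 and Sox18), when 5.1% of all genes were called, and 1 with it (Cd34), when 3.92% were.

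In LCDD against WT the common shift was the smallest of the 3 comparisons without the block. The median log2 difference was -0.04 (18 higher, 27 lower) against 0.01 for all genes, and -0.35 with the block. Leaving out 1 library moved that median from -0.27 (without LCDD replicate 2) to 0.13 (without LCDD replicate 4). 0 members were called by edgeR without the block, when 1.84% of all genes were, and 0 with it, when 3.2% were. DESeq2 called 0 without the block, when it called 4.34% of all genes, and 5 with it (Edn1 higher, and Cdh5, Clec14a, Ece1 and Ptprb lower), when it called 8.08%. At an unadjusted p under 0.05, edgeR had 4 (Nostrin, Edn1 and Vcam1 higher, Vwf lower), where 12% of all genes passed, 7.21% higher and 4.75% lower. Under each of the 3 codes that hold both genotypes 3 members were higher (17% of all genes) and 14 lower (14.3%). The code medians were 0.06 (code A), -0.27 (code C) and -0.56 (code D), so the sign differed between codes.

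The members with the largest differences in this contrast were Vcam1, Edn1 and Vwf. Vcam1, the adhesion receptor VCAM-1, stood at 158, 58.7, 27.9 and 125 CPM in LCDD and 42.5, 98.8, 21.5, 22.1 and 18.1 in WT, with 41.8, 75.1, 37.8 and 59.2 in DH-LMP2A. LCDD replicates 1 and 4 were high, as was WT replicate 2, and the groups overlapped. Fitted, the log2 difference was 1.19 ± 0.55 without and 1.22 ± 0.64 with the block (adjusted p = 0.417 and 0.367). Of the 9 fits with the block that leave out 1 library it was called in 1, without WT replicate 2 (1.95, adjusted p = 0.0306), and it was lowest without LCDD replicate 4 (0.53, adjusted p = 0.848). With Ddx3y as a covariate it was -0.022 without the block and -0.64 with it. Vcam1 exons share bases with the opposite-strand gene Gm43109.

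Edn1 had 14.1, 17.2, 11.8, 11.2 and 9.73 CPM in WT, against the LCDD values given above. Only WT replicate 2 overlapped LCDD, and LCDD replicate 1 exceeded all others. Its log2 difference was 1.03 ± 0.34 without and 0.82 ± 0.24 with the block (adjusted p = 0.175 and 0.1), and -0.024 with the block and Ddx3y as a covariate. Without LCDD replicate 1 it was 0.43 without and 0.51 with the block. With the block it was called without WT replicate 2 (1.03, adjusted p = 0.0397), with the proximal tubule covariate (1.05, adjusted p = 0.0323) and by DESeq2 (adjusted p = 0.0251). Vwf had 6.96, 9.76, 4.404, 3.53 and 3.97 CPM in WT. All 4 LCDD libraries were below all 5 WT libraries, a separation found in 1.63% of all genes (0 members and 2.97% of all genes had the opposite one), although LCDD replicate 3 and WT replicate 4 differed by little. The fitted log2 difference was -0.90 ± 0.39 without and -0.92 ± 0.34 with the block (adjusted p = 0.354 and 0.191), and with the block -0.57 without WT replicate 2.

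Most members had lower fitted levels in DH-LMP2A than in WT: the median log2 difference was -0.40 (9 higher, 36 lower) without the block and -0.59 with it, against 0.00 for all genes. Without the block 0 members were called by edgeR, when 0.627% of all genes were, and DESeq2 called 4 (Clec14a, Gpihbp1, Icam1 and Sele, all lower), when it called 2.74% of all genes. Without DH-LMP2A replicate 1 the median was -0.63. At an unadjusted p under 0.05, edgeR had 13 lower and 0 higher, where 12.5% of all genes passed in either direction, 6.67% higher and 5.79% lower. With the replicate block 8 members fell (Cdh5, Clec14a, Mmrn2, Gpihbp1, Sox18, Klf4, Sele and Icam1) and 0 rose, where 1.58% of all genes fell and 1.77% rose. DESeq2 with the block called 24 members, when it called 10.2% of all genes. Under every code 23 of 45 were lower, where 13.4% of all genes were, and 0 higher, where 18.8% were.

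Clec14a, an endothelial C-type lectin that binds multimerin 2, had the smallest adjusted p of the members here, with the block and without it. It stood at 116, 78.5, 79.9 and 78.7 CPM in DH-LMP2A and 289, 238, 193, 204 and 235 in WT, with 319, 133, 74.2 and 119.7 in LCDD. Every DH-LMP2A library lay below every WT library, as 2.33% of all genes did. The reverse, every library above, held for 0 members and 2.64% of all genes. On the log2 scale the difference was -1.39 ± 0.34 without and -1.46 ± 0.24 with the block (adjusted p = 0.0975 and 0.0177). Mmrn2, its partner, stood at 377, 246, 168 and 147 CPM in DH-LMP2A and 398, 387, 304, 265 and 371 in WT, against 396, 539, 239 and 179 in LCDD. Replicate 1 of DH-LMP2A overlapped WT. Fitted, the log2 difference was -0.56 ± 0.33 without and -0.97 ± 0.22 with the block (adjusted p = 0.523 and 0.047).

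Cdh5, the VE-cadherin of adherens junctions, stood at 568, 359.9, 271 and 228 CPM in DH-LMP2A and 678, 599.9, 607, 564 and 800.0 in WT, against 605, 729, 344 and 276 in LCDD. Only DH-LMP2A replicate 1 reached the WT range. Its log2 difference was -0.86 ± 0.31 without and -1.19 ± 0.25 with the block (adjusted p = 0.273 and 0.0341). Gpihbp1, which carries lipoprotein lipase across capillary endothelium, stood at 48.4, 14.7, 23.01 and 19.1 CPM in DH-LMP2A and 71.1, 74.9, 49.8, 56.2 and 63.9 in WT, against 64.3, 63.01, 36.6 and 28.6 in LCDD. All DH-LMP2A libraries were below all WT libraries, with replicate 1 just under the lowest WT one. The fitted log2 difference was -1.26 ± 0.34 without and -1.52 ± 0.28 with the block (adjusted p = 0.137 and 0.0251).

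The 2 transcription factors that fell were Sox18 and Klf4. Sox18, a regulator of vessel development, stood at 121, 67.6, 62.6 and 45.6 CPM in DH-LMP2A and 211, 111, 112, 101 and 185 in WT, against 175, 169.7, 84.8 and 63.5 in LCDD. DH-LMP2A replicate 1 fell inside the WT values and the others lay below them. On the log2 scale the difference was -0.95 ± 0.37 without and -1.26 ± 0.25 with the block (adjusted p = 0.306 and 0.0303). Klf4, a flow-responsive factor, stood at 92.5, 90.4, 62.8 and 59.1 CPM in DH-LMP2A and 149, 80.99, 103, 91.5 and 132 in WT, against 136, 205, 89.4 and 68.5 in LCDD. DH-LMP2A and WT overlapped through replicates 1 and 2 of DH-LMP2A. Fitted, the log2 difference was -0.55 ± 0.29 without and -0.81 ± 0.18 with the block (adjusted p = 0.478 and 0.0457).

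Of the leukocyte adhesion genes, Sele and Icam1 fell. Sele had DH-LMP2A and WT values that did not overlap, although WT replicate 5 and DH-LMP2A replicate 1 were almost equal, and its log2 difference was -2.41 ± 0.76 without and -3.04 ± 0.57 with the block (adjusted p = 0.204 and 0.0262). Icam1, the ICAM-1 that holds leukocytes by their integrins, stood at 36.03, 21.9, 17.02 and 17.4 CPM in DH-LMP2A and 57.9, 90.4, 38.4, 28.7 and 46.03 in WT, against 45.8, 55.9, 23.6 and 29.9 in LCDD. WT replicate 2 was by far the highest of the WT libraries, and DH-LMP2A replicate 1 overlapped WT. Its log2 difference was -1.18 ± 0.36 without and -1.45 ± 0.31 with the block (adjusted p = 0.185 and 0.0388). Vcam1 had a difference of 0.40 ± 0.55 and was not called. Macrophage markers were also lower in DH-LMP2A than in WT (all 6 negative, median -2.10), with WT replicate 2 the highest of all libraries. Their summed level was 17.7 to 39.7 CPM in DH-LMP2A, 20.1 to 166 in WT and 19.996 to 41.7 in LCDD. With the mean of the 6 macrophage genes over the 13 libraries Icam1 had r = 0.92, Sele 0.84 and Vcam1 0.32. With the mean of the other members these 3 genes had r = 0.83, 0.785 and -0.07, in the same order. These correlations are descriptions, and the part of macrophages in the result was not tested.

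The 8 calls of DH-LMP2A against WT depended on which libraries entered. Leaving out 1 library gave 0 without DH-LMP2A replicate 4 (0.613% of all genes). It gave 1 or 2 without DH-LMP2A replicate 2 or 3 or WT replicate 3 or 4 (0.85% to 1.14%). There were 4 without WT replicate 2 or 5 (1.58% and 1.52%), 13 without DH-LMP2A replicate 1 (4.95% of all genes) and 23 without WT replicate 1 (9.8% of all genes). Of these 9 fits Clec14a was called in 8, Sele in 5, Gpihbp1 and Sox18 in 4 each, and Cdh5, Icam1, Klf4 and Mmrn2 in 2 each. With the block and the 3 single-mouse WT libraries left out 0 members were called, where 0.231% of all genes were. With the block, 0 were also called with Ddx3y as a covariate (0.0179% of all genes) and with the proximal tubule mean (0.472%). With Ddx3y and the block Sele had -5.26, Icam1 -2.29, Sox18 -0.82 and Klf4 -0.38. Ddx3y counts were 0 or 1 in WT replicates 1, 3, 4 and 5 and at least 435 in DH-LMP2A. That fit could therefore hardly separate genotype from the covariate, and no conclusion is drawn from it. All 8 proximal tubule genes had higher fitted levels in DH-LMP2A than in WT (median 0.97, and 1.28 with the block), as did all 5 genes of smooth muscle and renin cells (0.67 and 0.61). Proximal tubule genes had a summed level of 275 to 1881 CPM in DH-LMP2A and 34.5 to 1912 in WT, and these overlapped. By code the medians were -0.05 (code A), -0.49 (code C) and -0.81 (code D). The WT library was a pool under code A and C, and under code D the WT libraries were single mice. Lower were 27 of 45 members under code A and 39 of 45 under each of the others. The Clec14a difference was -1.48 with the block and pooled libraries only, against -1.46 with all. Sele was -3.73 there, and Cdh5 -0.85, each without a call.

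**Figure D3:**
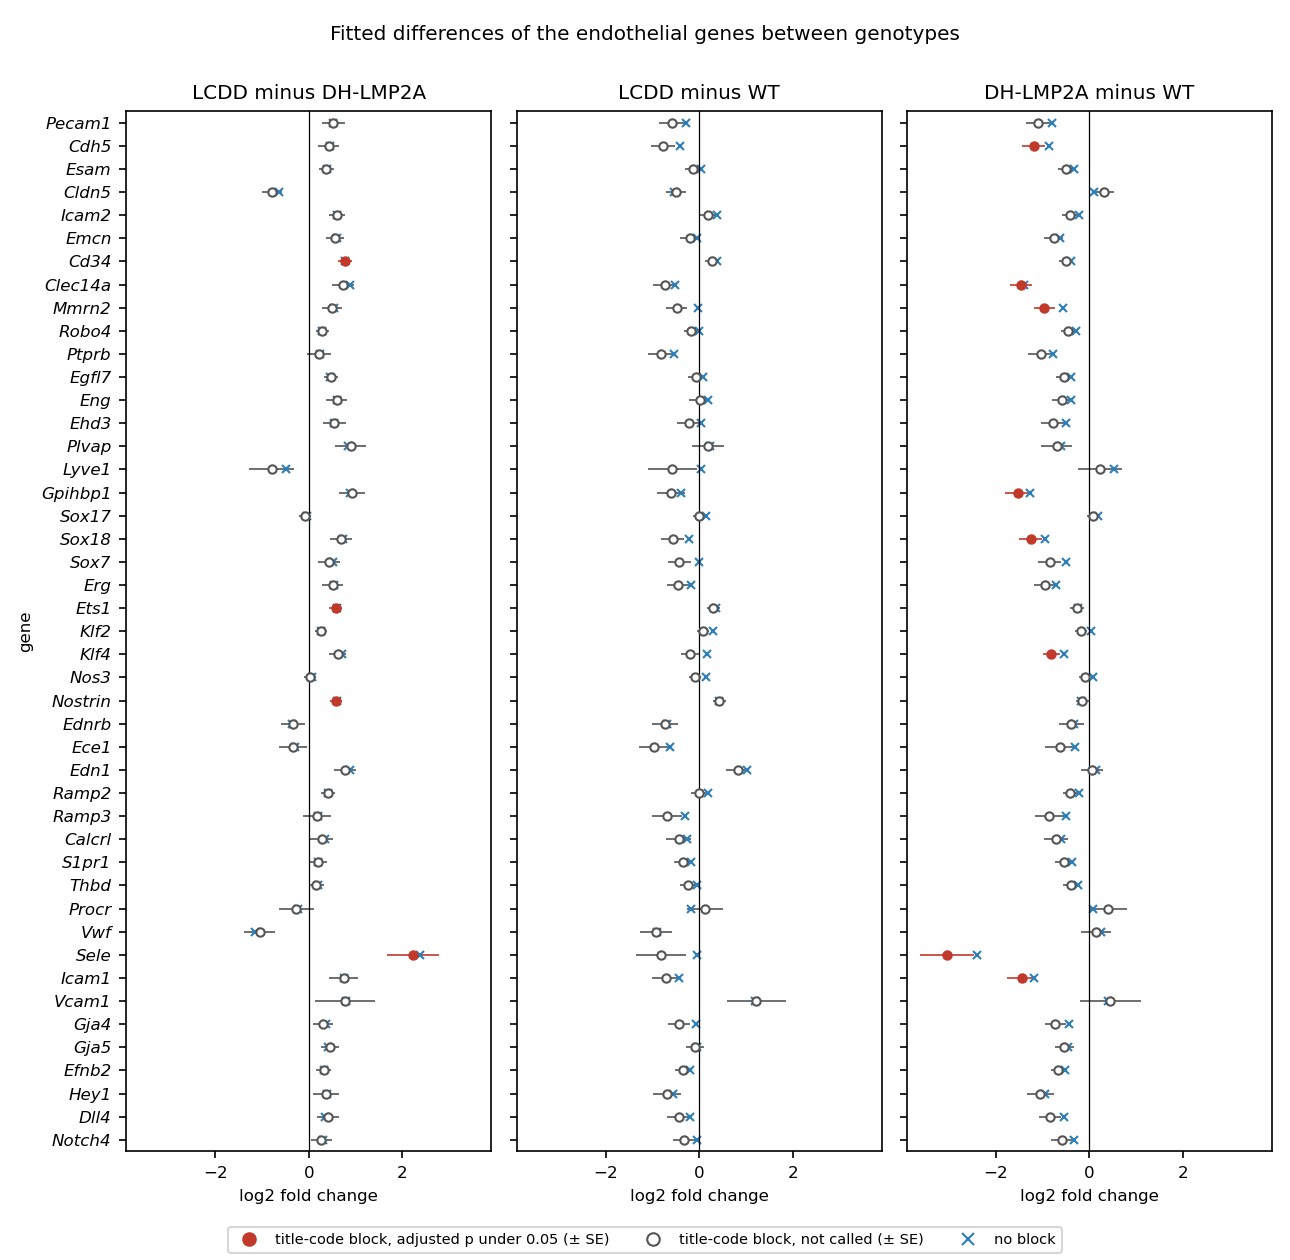
Circles show the fitted log2 fold change of each of the 45 tested endothelial genes with the replicate block (bars: SE, filled red where the adjusted p is under 0.05), crosses the value without the block, in the 3 genotype comparisons. Circles lie mostly right of 0 for LCDD minus DH-LMP2A and left of 0 for DH-LMP2A minus WT, with 4 and 8 filled.

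A separate list of 34 other endothelial genes, of which 33 passed the filter, had these medians: 0.38 for LCDD minus DH-LMP2A, -0.13 for LCDD minus WT and -0.44 for DH-LMP2A minus WT. Without the block 0 of the 33 were called by edgeR in any comparison, with 5, 2 and 9 at an unadjusted p under 0.05, in the same order, where 13.1%, 12% and 12.5% of all genes passed. Of the 9 in DH-LMP2A minus WT, 8 were lower and 1, Cd93, was higher. With the block Ecscr, Fli1, Bcl6b and Myct1 rose in LCDD against DH-LMP2A, where 3.24% of all genes did, and 0 were called in LCDD against WT. In that fit Kdr, Flt1, Flt4, Fabp4, Adgrl4, Fli1, Myct1, Arhgef15, Cyyr1 and She fell in DH-LMP2A against WT, where 1.58% of all genes did. None of the list rose there, where 1.77% of all genes did. Under every code 23 of the list were lower (13.4% of all genes) and 2, Cd93 and Sema3g, higher (18.8%). Every DH-LMP2A library lay above every WT library for Cd93 alone (2.64% of all genes), and below for 3 of the list (2.33%). Kdr, the main VEGF receptor of endothelium, stood at 2203, 1229, 805 and 542 CPM in DH-LMP2A and 2641, 1716, 2065, 1758 and 2828 in WT, against 2189, 2758, 1176 and 769 in LCDD. The values of DH-LMP2A and WT overlapped. The fitted log2 difference was -0.88 ± 0.43 without and -1.40 ± 0.33 with the block (adjusted p = 0.428 and 0.0493). Fli1, an ETS factor of endothelium and blood, had 0.70 ± 0.25 without and 0.67 ± 0.12 with the block in LCDD minus DH-LMP2A (adjusted p = 0.205 and 0.0134). In LCDD against WT the largest differences of the list were Aplnr, the apelin receptor, with -2.10 ± 0.67, and its ligand Apln with 0.69 ± 0.31, neither called. In DH-LMP2A minus WT they were Aplnr with -1.85 ± 0.66 and Cyyr1 with -1.10 ± 0.37, and in LCDD minus DH-LMP2A Bcl6b, an endothelial transcription factor, with 0.80 ± 0.29 and Ecscr, an endothelial surface protein, with 0.76 ± 0.22, all without the block. Aplnr means were low, 1.05 CPM in LCDD and 4.55 in WT.

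Markers of the cells around the endothelium also varied between libraries, and their part in the endothelial differences was not tested. Podocyte genes had a mean of 7.29 to 9.69 log2 CPM in LCDD, 8.67 to 9.74 in DH-LMP2A and 8.80 to 10.05 in WT, mesangial genes 8.85 to 9.53, 8.30 to 8.74 and 8.61 to 8.97, and proximal tubule genes 4.25 to 6.24, 4.54 to 7.22 and 1.55 to 7.28. None of the 6 podocyte or 8 tubule genes was at 0 in any library. LCDD replicates 1 and 2 were the lowest for the podocyte genes and the highest for the endothelial mean.

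**Figure D4:**
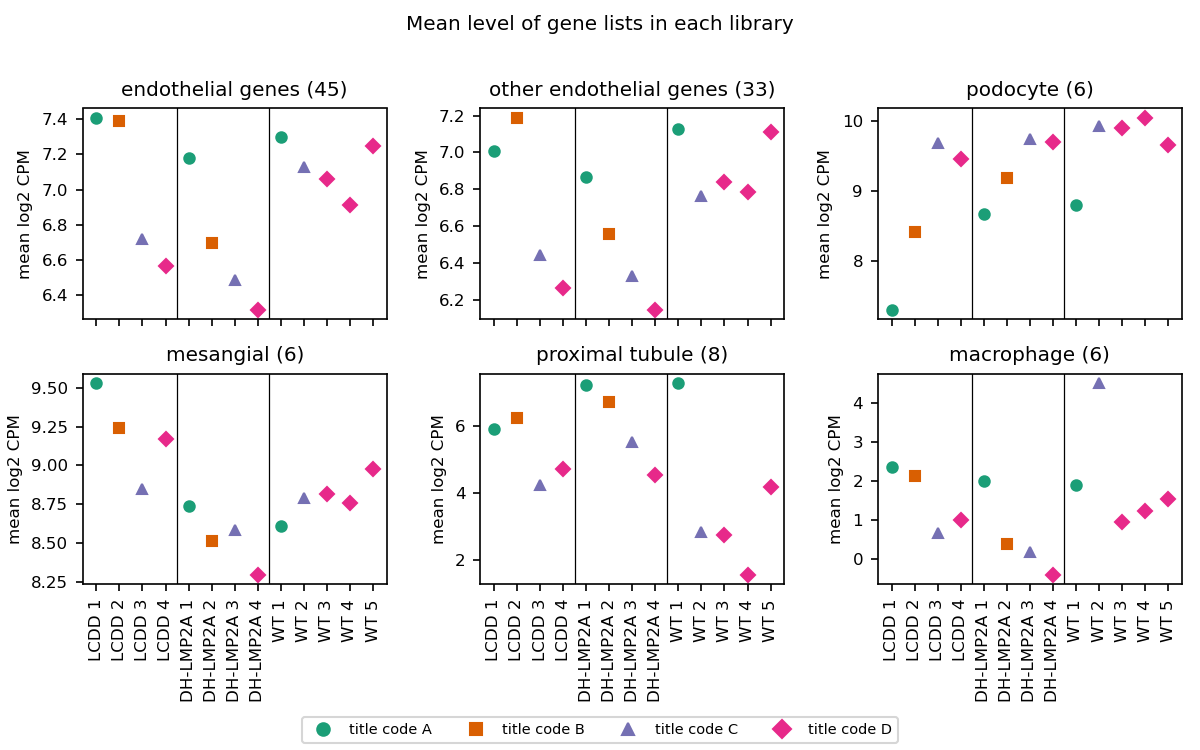
Each panel shows the mean log2 CPM of one gene list in each of the 13 libraries, coloured by title code, with genotypes divided by lines. LCDD replicates 1 and 2 stand at the top of the panel of 45 endothelial genes and at the bottom of the podocyte panel, and proximal tubule genes are lowest in WT replicate 4.

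With the block 8 members of LCDD minus DH-LMP2A had an adjusted p from 0.05 to 0.1, and were not called. Higher among them were Icam2, an integrin ligand, with 0.60 ± 0.16 (adjusted p = 0.0555), Klf4 with 0.62 ± 0.18, Gpihbp1 with 0.92 ± 0.28, Egfl7, a secreted vascular protein, with 0.47 ± 0.15, Clec14a with 0.73 ± 0.23 and Edn1. Lower were Cldn5 and Vwf, whose values are given above. Plvap had 0.90 ± 0.33 (adjusted p = 0.14). In DH-LMP2A minus WT 11 members lay in that range, all lower. Pecam1 had -1.10 ± 0.27 (adjusted p = 0.0529), Erg, an ETS factor, -0.95 ± 0.23, Efnb2, an ephrin ligand of arteries, -0.67 ± 0.16, and Ptprb, a phosphatase that acts on Tie2, -1.04 ± 0.27. Emcn had -0.76 ± 0.20, Hey1, a Notch target, -1.05 ± 0.28, Dll4, a Notch ligand, -0.84 ± 0.24 and Cd34 -0.49 ± 0.15. The others were Sox7, Egfl7 and Gja4. In LCDD minus WT 0 members lay in that range. The share of all genes in that range is not given here, so these counts have no background to be read against. Sox17, another SOXF factor, differed by -0.08 ± 0.14 in LCDD minus DH-LMP2A, and Nos3 by -0.11 ± 0.12 in DH-LMP2A minus WT.

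No member beyond those listed as risen or fallen was called by edgeR in the fits of all 13 libraries that hold no covariate, with the block or without it. Among the junction and surface genes, Esam (an adhesion molecule of endothelial junctions) had a log2 difference with the block of 0.38 ± 0.17 in LCDD minus DH-LMP2A and -0.50 ± 0.17 in DH-LMP2A minus WT, Icam2 0.60 ± 0.16 and -0.41 ± 0.17, Robo4 (a receptor that steadies vessel walls) 0.29 ± 0.14 and -0.47 ± 0.15, Egfl7 0.47 ± 0.15 and -0.55 ± 0.16, and Eng 0.59 ± 0.22 and -0.58 ± 0.23. These 2 comparisons share the DH-LMP2A libraries. Egfl7 exons share bases with genes on both strands. Of the factors, Sox7 (SOXF) had 0.43 ± 0.23 and -0.85 ± 0.24, and Klf2 (induced by flow) 0.27 ± 0.13 and -0.18 ± 0.13.

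Calcrl, with its partners Ramp2 and Ramp3 the receptor for adrenomedullin, had 0.28 ± 0.25 in LCDD minus DH-LMP2A and -0.72 ± 0.27 in DH-LMP2A minus WT with the block. Ramp2 had 0.41 ± 0.15 and -0.42 ± 0.16, and Ramp3 0.17 ± 0.29 and -0.86 ± 0.31. S1pr1, the receptor for sphingosine 1-phosphate, had 0.20 ± 0.19 and -0.54 ± 0.20. Ednrb, the endothelin B receptor, had -0.33 ± 0.25 and -0.39 ± 0.27, and Ece1, the endothelin-converting enzyme, -0.34 ± 0.29 and -0.64 ± 0.31. Thbd, the anticoagulant thrombomodulin, had 0.17 ± 0.17 and -0.40 ± 0.17, and Procr -0.26 ± 0.37 and 0.39 ± 0.40. None of these passed the threshold.

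The arterial genes, Gja4 and Gja5 (gap junction connexins), Efnb2 and Notch4 (a Notch receptor of endothelium), had 0.30 ± 0.22, 0.45 ± 0.20, 0.32 ± 0.16 and 0.27 ± 0.22 in LCDD minus DH-LMP2A with the block. In DH-LMP2A minus WT they had -0.73 ± 0.23, -0.54 ± 0.20, -0.67 ± 0.16 and -0.59 ± 0.23. None of the 6 genes of the arterial group was called. Lyve1, at 0.998, 6.25, 3.501 and 0.986 CPM in LCDD, 4.98, 4.705, 3.94 and 2.82 in DH-LMP2A and 2.2001, 2.1005, 3.44, 2.64 and 3.85 in WT, overlapped between all genotypes.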

How the data were processed

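RNA of bead-purified glomeruli was measured in 13 libraries, grouped by the genotype in the labels. The deposited values are unnormalized read counts for each gene, which the authors produced with featureCounts (per the file headers), beside a summed exon length in bases. Per the submitters' processing notes, STAR 2.4.0a, Subread 1.5.0-p3, featureCounts, DESeq2 and the builds mm10 and GRCm38 were named, with no role or order; strand setting, handling of multi-mapping reads and annotation are not given in the sources used here. Symbols overlapped GENCODE M21 for 46 of 46 members; exons of 2 share bases with a same-strand gene and of 10 with an opposite-strand gene, so their counts may be split.

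All tests were computed from the counts with edgeR 4.0.16 in R 4.3.3 (limma 3.58.1): filterByExpr with a minimum count of 10, TMM, 1 quasi-likelihood fit of all 13 libraries, Benjamini-Hochberg over 16738 genes. At least 99.93% of each library's counts were kept. SE was taken as log2 fold change over the root of F, and 2 was the prior count in log2 CPM. Libraries carry no molecular identifiers, so floors cover counting error only. Chi-square over degrees of freedom between libraries of a genotype was 12.6 to 234 over 22 pairs, so none looked like a repeat deposit, and 0 columns were unmapped. The pairing by title code comes from shared numbers in the titles: after subtracting each genotype's mean, libraries with the same code correlated at 0.153 to 0.593 (4 pairs, LCDD and DH-LMP2A), 0.127 to 0.4 (3 pairs, LCDD and WT) and 0.16 to 0.492 (3 pairs, DH-LMP2A and WT).

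Values in every library are given for members called without or with the block, for the 3 members with the largest absolute log2 fold change in each comparison (mean of at least 1 CPM), and for the 3 with the highest level per length; Cldn5 and Lyve1 were added after their values were seen. Of the other endothelial genes, called ones and the 2 largest are named, and Cd93 and Sema3g were added after their values were seen. Members and lists were chosen with earlier results of these data known. Part of the podocyte list is not reported here, and its values were computed without it. Alternatives were RLE size factors, DESeq2 1.42.0, other filters, only the genotypes compared, the block, Ddx3y or tubule covariates, pooled libraries only, a minimum log2 fold change of 1 and leaving out each replicate; those combined with the block were chosen after seeing the data. The scripts were tested on simulated data.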

Additional observations from a re-analysis of the deposited data

Results flagged for a closer look

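Of 135 sets of 4 or 5 libraries (45 genes in 3 genotypes), 8 held a library far from the others of its genotype, by the gap to its nearest neighbour over the whole range. Chance flags about 1 in 20, or 6.75 here. DH-LMP2A replicate 1 was high for Cd34 with 9.23 log2 CPM (others 8.42 to 8.56), Clec14a with 6.86 (6.30 to 6.32) and Edn1 with 4.32 (3.57 to 3.67). DH-LMP2A replicate 4 was low for Sox17 with 6.56 (6.77 to 6.79). LCDD replicate 1 was high for Edn1 with 5.72 (4.06 to 4.23). WT replicate 2 was low for Calcrl, a receptor of the calcitonin peptide family, with 6.87 (8.13 to 8.22), for Ednrb, an endothelin receptor, with 6.17 (7.60 to 7.95), and for Ets1 with 8.77 (9.17 to 9.27).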

How the results depend on the processing

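The counts of members called depend on the test, the block and single libraries. Percentages in parentheses are the share of all genes called in the same fits. For LCDD minus DH-LMP2A the count of members called was 0 (2%). It became 2 with DESeq2 (4.86%), 3 with the proximal tubule covariate (5.1%) and 4 with the replicate block (6.1%). Leaving out each replicate gave 0 to 3 (0.667% to 2.86%). With the replicate block, DESeq2 called 13 (12.2%), pooled libraries only 1 (2.32%) and the tubule covariate 1 (3.92%). With the block, leaving out a replicate gave 0 to 6 (1.46% to 8.01%): 0 without DH-LMP2A replicate 2 or 4 or LCDD replicate 1 or 2, and 2 without LCDD replicate 4. For LCDD minus WT the count was 0 (1.84%), and 0 to 1 when a replicate was left out (0.953% to 2.65%). With the block it was 0 (3.2%), against 5 with DESeq2 (8.08%) and 1 with the tubule covariate (2.01%). With the block and a replicate left out it was 0 to 2 (1.04% to 3.62%): 1 without LCDD replicate 1 or WT replicate 3 and 2 without WT replicate 1 or 2. For DH-LMP2A minus WT it was 0 (0.627%), against 4 with DESeq2 (2.74%) and 1 with only the genotypes compared (0.472%). It was 9 with the tubule covariate (2.44%), 8 with the block (3.36%) and 0 to 1 with a replicate left out (0.171% to 2.45%). With the block it became 0 with Ddx3y (0.0179%), 0 with pooled libraries only (0.231%), 0 with the tubule covariate (0.472%) and 24 with DESeq2 (10.2%). Leaving out a replicate gave 0 to 23 (0.613% to 9.8%): 0 without DH-LMP2A replicate 4, 1 without DH-LMP2A replicate 3 or WT replicate 3, 2 without DH-LMP2A replicate 2 or WT replicate 4, 4 without WT replicate 2 or 5, 13 without DH-LMP2A replicate 1 and 23 without WT replicate 1. The median difference of the members in that comparison, -0.40, was -0.73 with the tubule covariate. The sign turned for Edn1 in LCDD minus WT with the block and Ddx3y (-0.024) and for Vcam1 with Ddx3y (-0.022), with the block and Ddx3y (-0.64) and with the block and pooled libraries only (-0.10). The cause of these changes was not tested. Medians over leave-one-out ran from 0.23 to 0.67, -0.27 to 0.13 and -0.63 to -0.28 for the 3 comparisons in the order above. Selp, with 0 to 9 counts, did not pass the filter on low counts and was not tested, and every tested member stood above the floor of 3 counts in every library.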
